A study of Arabidopsis thaliana with 4 samples.

Results

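This account covers 27 genes of the expansin and cell wall families of the 13356 genes that the arrays name singly, measured in expanded leaves of Arabidopsis thaliana. A gene was taken when the platform annotation paired a probe set with it alone and its symbol began with EXPA, EXPB, EXLA, EXLB, CESA, CSL, PME, FLA or AGP. Of 28 probe sets found this way, 1 was left out because its gene, PMEAMT, encodes a phosphoethanolamine methyltransferase and shares only its first letters with the pectin methylesterases. The remaining 27 were 10 alpha-expansin genes (EXPA), 4 beta-expansin genes (EXPB), 3 expansin-like A genes, 1 expansin-like B gene, 7 cellulose synthase-like genes (CSL) and 2 pectin methylesterase genes (PME). Each had 1 probe set. The reference used for names lists 131 genes with such symbols, so the families are covered in part. Cellulose synthases (CESA, 7 genes), fasciclin-like proteins (FLA, 19), other arabinogalactan proteins (AGP, 30) and pectin methylesterase inhibitors (PMEI, 3) had 0 members and were not analysed here. Counts of genes below are of those that the annotation names singly, since 8730 probe sets have no name in it and 503 pair with several genes.

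Plant cells grow by yielding of a wall in which cellulose fibres are tied together by xyloglucan and other hemicelluloses and embedded in pectin. Expansins loosen that network without cutting it, and many cellulose synthase-like enzymes make hemicellulose backbones. Pectin methylesterases remove methyl groups from pectin, which changes how stiff it is. Wall extension is one of the processes that set the final size and shape of a leaf.

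The arrays compared 2 genotypes, both grown in short days. Columbia is the reference accession, with 2 arrays, and jaw-D is a mutant that overexpresses the microRNA miR319a, also with 2 arrays. As background, miR319a causes mRNAs of some TCP transcription factors, which restrain cell division in leaves, to be cut, and jaw-D leaves are known for crinkled margins. The labels state no leaf number, plant age or pooling, nor whether the arrays of a genotype came from separate plants, so each p-value here reflects array-to-array spread, which may be technical.

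The values are probe-set signal intensities that the authors had already brought to a common level. Median signals lay between 74.6 and 77.2 on the 4 arrays. For a GAPDH control, the 3' signal was 2.06 times the 5' signal on jaw-D array 1 and 1.36 to 1.43 times on the other arrays, while a second design of this control gave 1.04 to 1.24 over all 4. Of 13 mesophyll marker genes 2 were named here, RCA and LHCB4.1, which read between 7868.8 and 13088.8 on every array. Of 9 root hair markers 2 were named, both expansins described below, and 0 of 21 xylem and 0 of 11 pollen markers were named.

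EXLB1 rose in jaw-D and was the only one of the 27 genes called, with an adjusted p under 0.05. On the log2 scale used for testing, a single other gene, EXPB3, differed by over 2-fold, also upward, and did not pass. By the ratio of mean signals, EXPA24 also differed by over 2-fold, downward (0.283), at mean signals of 11.7 in Columbia and 3.3 in jaw-D. The alpha-expansins, the expansin-like A genes, the cellulose synthase-like genes and the pectin methylesterases had differences between -0.66 and 0.41 on the log2 scale, and none of them was called. Over all probe sets 0.189% were called, 0.0352% as higher and 0.154% as lower in jaw-D. With 27 genes, a single call is a description of EXLB1 and says nothing about the families as a group.

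The median log2 difference of the 27 genes was 0.01, against -0.04 over all probe sets. Of the 27, 14 differences were positive and 13 negative. Leaving out jaw-D array 1 gave a median of 0.18, and leaving out jaw-D array 2 gave -0.07. Arrays of the genotypes did not overlap for 7 genes, 3 higher and 4 lower in jaw-D, which is 25.9% of the members, and for 44.0% of all probe sets. At an unadjusted p under 0.05 there were 4 members, or 14.8%, against 13.0% of all probe sets.

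**Figure D1:**
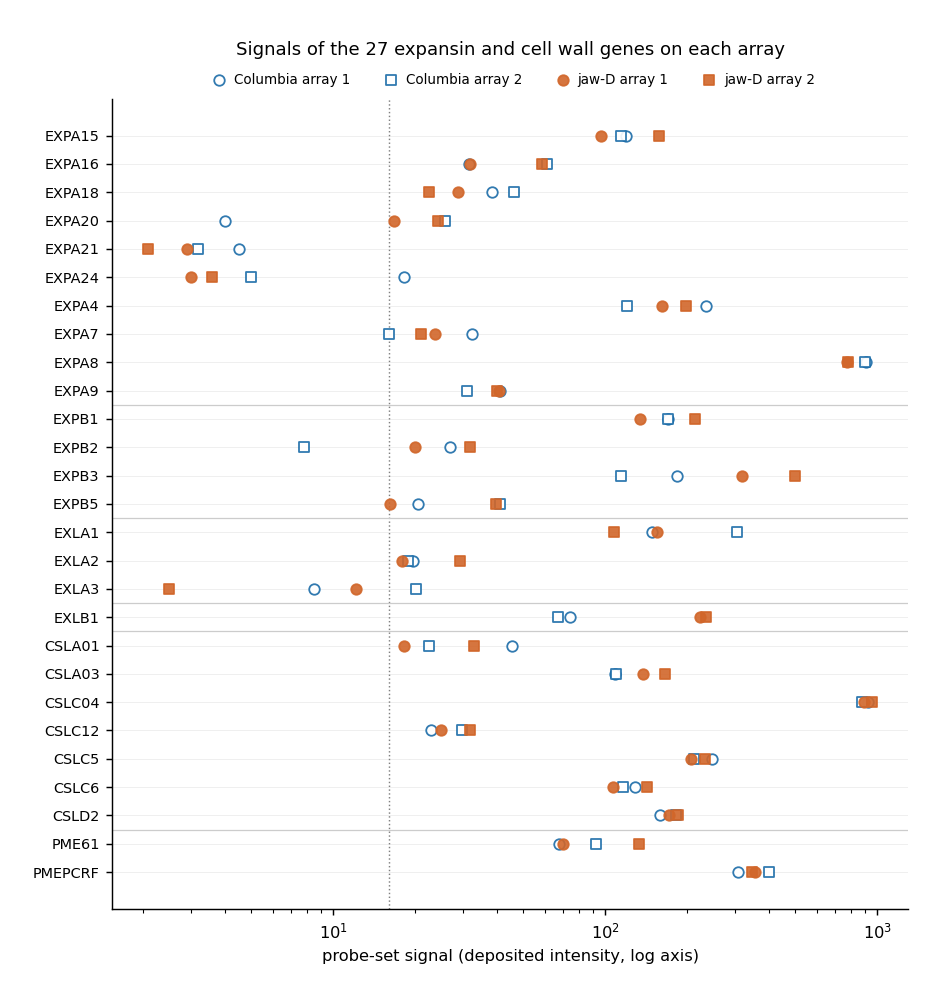
Signal of each of the 27 genes on each array, on a log axis. Open symbols are Columbia and filled symbols jaw-D, circles are array 1 and squares array 2, grey lines separate the families, and the dotted line marks a signal of 16, the pseudocount. For EXLB1 and EXPB3 both filled symbols lie to the right of both open ones, while in 20 of the 27 genes the genotypes overlap.

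EXLB1 (AT4G17030) encodes an expansin-like protein, a relative of the expansins for which wall-loosening activity is not established. Its signal was 74.4 and 67.2 in Columbia, and in jaw-D it was 223.1 and 234.0. The lowest jaw-D value thus lay well above the highest Columbia value, and the arrays of each genotype lay close together. The means were 70.8 ± 5.09 in Columbia and 228.6 ± 7.71 in jaw-D (SD, n = 2 arrays each), a 3.23-fold ratio of mean signals. On the log2(signal + 16) scale the difference was 1.50 (SE 0.15, 95% interval 1.13 to 1.86), with an adjusted p of 0.0427 by limma over all probe sets. Without any 1 of the 4 arrays the difference ran from 1.44 to 1.56 and was not called, with 0 calls in the whole table. With a pseudocount of 1 it was 1.68 and was not called either (adjusted p = 0.227). Fitting the array number as a block also ended the call (adjusted p = 0.0533 by limma), though no label states that arrays are paired.

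In leaf tissue measured in bulk, more cells that use a gene and more RNA per cell cannot be told apart. Those genes flanking EXLB1 in the reference's gene order that had values gave no call. AT4G17020, beside it, read 69.5 and 93.8 in Columbia and 64.3 and 115.1 in jaw-D, a log2 difference of 0.08 (SE 0.27). AT4G17010, one gene further on the same side, had -0.12 (SE 0.22). On the other side CLPR4, directly beside EXLB1, had no value. The second gene on that side, UGLYAH, read 75.5 and 79.2 in Columbia and 64.2 and 56.3 in jaw-D, with -0.29 (SE 0.15). Whether these differences differ from that of EXLB1 was not tested. AT4G30380, which the reference lists under the synonym EXLB2 and which the symbol rule left out, read between 1.5 and 2.1 on all arrays, so no difference could be seen at that signal.

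**Figure D2:**
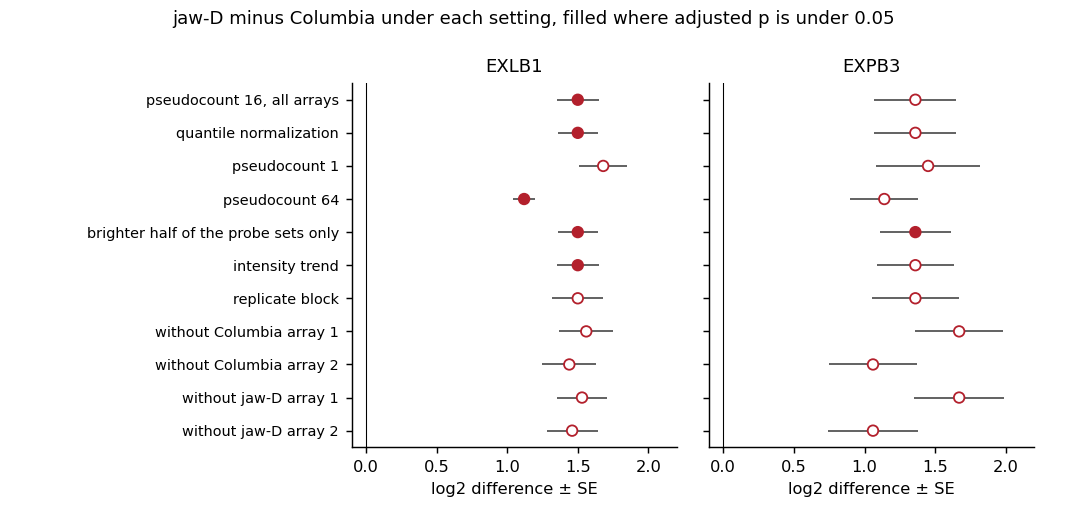
Difference between jaw-D and Columbia for EXLB1 and EXPB3 under each way of processing, as log2 values with standard errors, filled where the adjusted p is under 0.05. EXLB1 stays between 1.12 and 1.68, and EXPB3 between 1.06 and 1.67.

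Beta-expansins form the second expansin family, which in grasses includes pollen allergens. EXPB3 (AT4G28250) read 183.0 and 114.3 in Columbia and 319.3 and 496.5 in jaw-D. Both jaw-D arrays were above both Columbia arrays, but the arrays of each genotype lay far apart. Its means were 148.7 ± 48.6 and 407.9 ± 125.3 (SD, n = 2 arrays each), with a log2 difference of 1.36 (SE 0.29, 95% interval 0.64 to 2.09) and an adjusted p of 0.192 by limma. It was called in 1 of 10 other settings, with an adjusted p of 0.0289 when testing was limited to the brighter 50% of probe sets, a setting that called 2.56% of those tested, and its adjusted p reached 0.518 in the others. Its difference ran from 1.06 to 1.67 when 1 array was left out. Over all probe sets 0.602% were at least 2-fold higher in jaw-D on this scale and 0.958% at least 2-fold lower.

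The other beta-expansins gave no call. EXPB1 read 170.4 and 170.8 in Columbia, and its jaw-D arrays lay on either side, at 134.2 and 214.3. Its log2 difference was 0.00, with a 95% interval of -0.58 to 0.57. EXPB2 had a log2 difference of 0.38 (SE 0.31) at signals between 7.8 and 31.8. EXPB5 had -0.11 (SE 0.33), and in both genotypes its array 2 read about 40 against at most 20.6 on array 1. Of the genes beside EXPB3, AT4G28240 overlapped between genotypes, with a log2 difference of 0.17 (SE 0.27). AT4G28260, on the other side, read 311.9 and 339.0 in Columbia and 470.0 and 420.9 in jaw-D, a log2 difference of 0.43 (SE 0.15) that was not called (adjusted p = 0.331).

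Alpha-expansins are the classical wall-loosening proteins, which act in acidified walls during growth. Of the 10 named singly out of 24, 0 were called by limma and 1 had an unadjusted p under 0.05, and their median log2 difference was -0.03, with a range from -0.49 to 0.33. For 4 of them, EXPA8, EXPA18, EXPA21 and EXPA24, the jaw-D signals were both under the lower Columbia signal, against 26.5% of all probe sets. For 0 did both lie above, against 17.5% of all probe sets. All of the 4 but EXPA8 were dim. Over all probe sets the median log2 difference was -0.164 around a signal of 30.1 and -0.08 around 5.72. Around 2.35, near the signal of EXPA21, it was -0.034, against -0.04 at all signals. The differences of EXPA18, EXPA21 and EXPA24 were -0.49, -0.10 and -0.48. Whether low signal has a part in these was not tested.

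EXPA8 (AT2G40610) read 905.2 and 902.9 in Columbia and 770.3 and 777.2 in jaw-D. The arrays of a genotype agreed closely and the gap between genotypes was small. Its log2 difference was -0.22 (SE 0.14, 95% interval -0.57 to 0.13, adjusted p = 0.579 by limma). The moderated standard error is larger than these 4 values alone would give, since limma draws each spread toward that of all probe sets. EXPA18 (AT1G62980), an expansin gene known from root hairs, read 38.4 and 46.4 in Columbia and 28.7 and 22.5 in jaw-D. Its log2 difference was -0.49 (SE 0.17, adjusted p = 0.317), and EXPA7, the other expansin known from root hairs, had -0.04 (SE 0.23) with arrays that overlapped.

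EXPA24 read 18.3 and 5.0 in Columbia and 3.0 and 3.6 in jaw-D, a log2 difference of -0.48 (SE 0.25). Only 1 of its 4 values exceeded 16, and the difference became -0.12 without Columbia array 1. EXPA21 was below 5 on every array, with a log2 difference of -0.10 (SE 0.15). Signals this low carry no detection call in the deposited table, so their distance from background is unknown. EXPA21 and EXPA24 lie in a run of alpha-expansin genes on chromosome 5, and 2 further probe sets for genes of this family pair with several genes each and were not used.

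EXPA4 read 235.2 and 119.8 in Columbia and 161.4 and 198.9 in jaw-D. Its Columbia arrays enclosed both jaw-D arrays, and the log2 difference was 0.08 with a 95% interval of -0.68 to 0.84. EXPA20 had 0.33 (SE 0.36), with Columbia arrays at 4.0 and 25.9, the widest spread between arrays of a genotype among the 27 genes on the log2(signal + 16) scale. EXPA15, EXPA16 and EXPA9 had 0.08, -0.02 and 0.12, with arrays that overlapped.

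The expansin-like A genes listed in the reference were all named singly, 3 of 3. By limma 0 were called, and 0 had an unadjusted p under 0.05. EXLA1 (AT3G45970) read 148.2 and 305.8 in Columbia and 155.4 and 107.7 in jaw-D. Columbia array 2 stood apart, and Columbia array 1 lay between the jaw-D arrays. The log2 difference was -0.66 (SE 0.35, adjusted p = 0.497 by limma), and -0.17 without Columbia array 2. EXLA3, which lies next to EXLA1 in the reference's gene order, had -0.38 (SE 0.28) at signals between 2.5 and 20.1, and -0.08 without jaw-D array 2. EXLA2 had 0.16 (SE 0.19). For EXLA1 and EXLA3 alike, Columbia array 2 had the highest and jaw-D array 2 the lowest value.

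**Figure D3:**
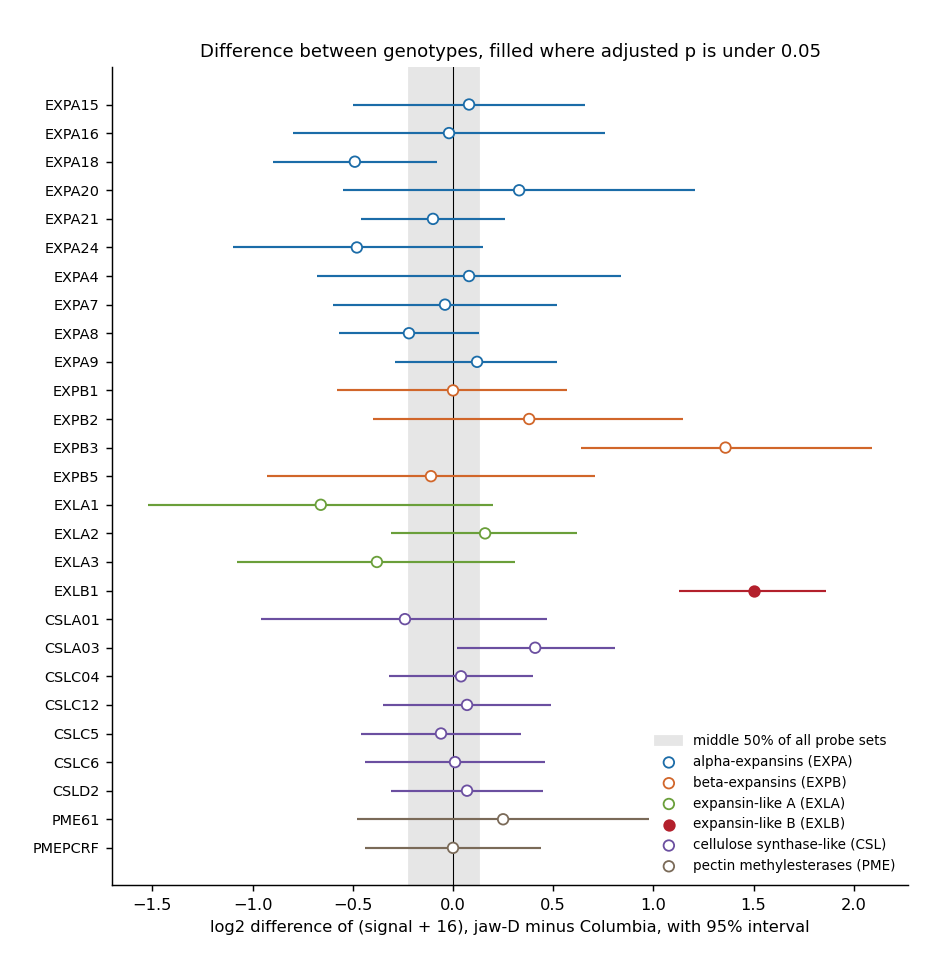
Log2 difference between jaw-D and Columbia for each of the 27 genes with its 95% interval, coloured by family and filled where the adjusted p is under 0.05. The grey band holds the middle 50% of all probe sets, from -0.22 to 0.13, and the intervals of EXLB1, EXPB3 and CSLA03 lie above 0 while that of EXPA18 lies below it.

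Many cellulose synthase-like enzymes polymerise the backbones of hemicelluloses. The CSLC enzymes are known to make the glucan backbone of xyloglucan. All 4 CSLC members overlapped between genotypes, while 44.0% of all probe sets did not. CSLC04 (AT3G28180) read 920.4 and 877.0 in Columbia and 893.3 and 953.4 in jaw-D, a log2 difference of 0.04 (SE 0.15). Its 95% interval, from -0.32 to 0.40, corresponds to jaw-D levels between 0.799 and 1.32 times those of Columbia. CSLC5 had -0.06 (SE 0.16), CSLC6 had 0.01 (SE 0.18) and CSLC12 had 0.07 (SE 0.17). A further gene of this group, which the annotation writes ATCSLC08 and the symbol rule left out, also had 0.07 (SE 0.27).

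The CSLA enzymes make glucomannan. CSLA03 (AT1G23480) read 108.6 and 110.0 in Columbia and 137.7 and 165.5 in jaw-D. Both jaw-D arrays were above both Columbia arrays, as for 17.5% of all probe sets. Its log2 difference was 0.41 (SE 0.16, 95% interval 0.02 to 0.81), with an adjusted p of 0.362 by limma. CSLA01 had -0.24 (SE 0.29) with arrays that overlapped. CSLD2, of a group known from tip-growing cells such as root hairs, read 159.2 and 181.5 in Columbia and 172.2 and 185.9 in jaw-D, with a log2 difference of 0.07 (SE 0.15). Of the 7 cellulose synthase-like genes named singly out of 26, limma called 0, 1 had an unadjusted p under 0.05, and the median difference was 0.04.

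Both pectin methylesterase genes that met the symbol rule, 2 out of 12 with such symbols in the reference, overlapped between genotypes. Of all probe sets, 44.0% did not. PMEPCRF (AT5G53370) read 308.5 and 400.3 in Columbia and 355.1 and 346.6 in jaw-D, a log2 difference of 0.00 with a 95% interval of -0.44 to 0.44. PME61 (AT3G59010) read 67.8 and 92.2 in Columbia and 69.8 and 133.2 in jaw-D, a difference of 0.25 (SE 0.30). Outside the symbol rule, genes were looked up only by a PME synonym with a number, which gave AT4G02300 (PME39) and ATPMEPCRB (PME41). Pectin methylesterase genes under other names were not looked for. AT4G02300 had a log2 difference of -0.13 (SE 0.31) with arrays that overlapped. ATPMEPCRB read 36.5 and 38.8 in Columbia and 62.6 and 134.6 in jaw-D, a log2 difference of 1.02 (SE 0.31) that was not called (adjusted p = 0.288 by limma) and was 0.55 without jaw-D array 2.

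**Figure D4:**
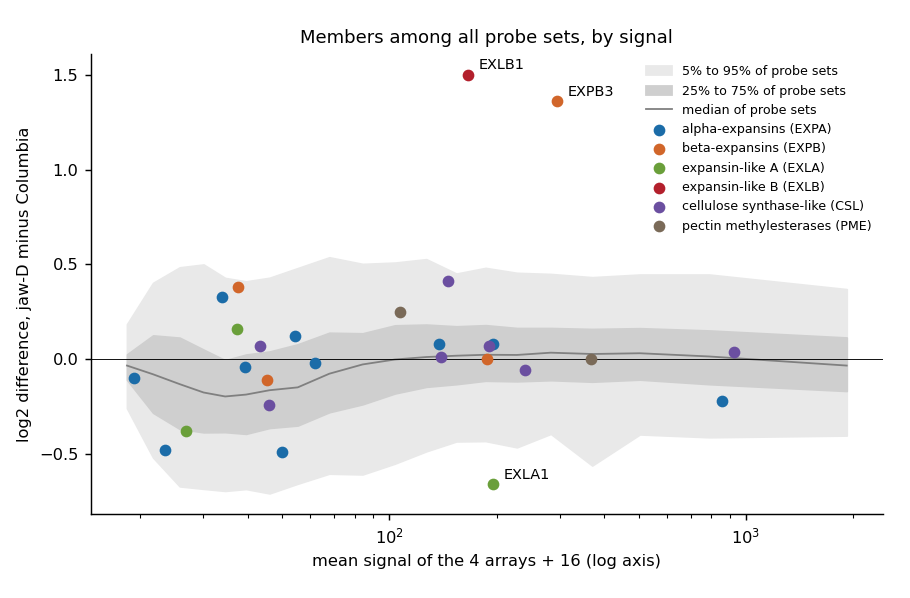
Log2 difference of each member against its mean signal over the 4 arrays plus 16, on a log axis, over grey bands for the middle 50% and 90% of all probe sets in 20 bins of equal size. EXLB1, EXPB3 and EXLA1 lie outside the wider band for their signal.

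The precision differed between members. For 20 of the 27 genes the 95% interval, which is not adjusted for the number of probe sets, lay within 2-fold in either direction, and for 6 of the 26 genes that were not called it reached beyond. Those 6 were EXPA20, EXPA24, EXPB2, EXPB3, EXLA1 and EXLA3. The smallest difference called anywhere in the table was 1.48 in size, so a gene that changed by less could hardly have passed.

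Members also varied between arrays of a genotype. On the signal + 16 scale, 10 of 27 differed by over 1.5-fold between the Columbia arrays and 7 of 27 between the jaw-D arrays, or 37.0% and 25.9%, against 8.49% and 7.93% of all probe sets. Of the 27, 20 read higher on jaw-D array 2 than on jaw-D array 1, a share of 74.1%, against 53.2% of all probe sets. Between the Columbia arrays 12 read higher on array 2. Signal was not matched in these comparisons, and jaw-D array 1 is the array with the high GAPDH ratio given above, whose part in this was not tested.

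Other genes of the wall, taken from 6 lists by symbol, gave no call by limma over all probe sets. Of 36 genes listed for xyloglucan 9 were named singly, all XTH genes, whose enzymes cut and rejoin xyloglucan. Of these 3 had positive and 6 negative differences, with a median of -0.22, and 3 had an unadjusted p under 0.05. Over all probe sets 56.9% of the differences were negative and 13.0% had such a p. The 6 genes with negative differences were dim, with mean signals between 2.3 and 17.5. XTH32, the brightest of the 9 and named after its value was seen, had 0.51 (SE 0.24, adjusted p = 0.449 by limma). XTH16 read 18.2 and 36.7 in Columbia and 62.1 and 94.4 in jaw-D, a log2 difference of 1.13 (SE 0.28, adjusted p = 0.222). XTH18 and XTH19 had -0.70 (SE 0.21) and -0.83 (SE 0.31), and both were dim, with jaw-D arrays at 2.4 and 6.4 for XTH18 and at 1.4 and 16.3 for XTH19, whose difference ran from -1.27 to -0.38 without 1 array.

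The list for lignin, xylan and wall acetylation had 26 of 91 genes named singly, with 12 positive and 14 negative differences and a median of -0.01. By limma 6 of the 26 genes had an unadjusted p under 0.05, against 13.0% of all probe sets. Arrays of the genotypes did not overlap for 14 of the 26, against 44.0% of all probe sets. Of these 14 genes, 7 were higher and 7 lower in jaw-D, against 17.5% and 26.5% of all probe sets. Most of the 26 genes were TBL genes, of a family that includes acetyltransferases of wall polysaccharides. TBL37 read 73.5 and 61.1 in Columbia and 206.7 and 165.3 in jaw-D, a log2 difference of 1.27 (SE 0.18) that did not pass (adjusted p = 0.0984 by limma). TBL38 read 59.2 and 62.4 in Columbia and 179.3 and 108.6 in jaw-D, a difference of 1.02 (SE 0.24), and TBL39 had 0.76 (SE 0.17). In the other direction, TBL26 had -0.95 (SE 0.23), named after its value was seen as the next by unadjusted p. TBL37 and TBL38 were called when testing was limited to the brighter 50%, with adjusted p of 0.00599 and 0.0429, but their Columbia means lay below the median signal of 77.4 that divides the probe sets, so they entered through their jaw-D signal.

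The remaining lists held few genes named singly. For pectin there were 2 of 31, and ADPG1, a polygalacturonase of pod opening, had -0.61 (SE 0.19) at signals between 8.9 and 29.0 and -0.39 without Columbia array 2, while GAUT15 had 0.08 (SE 0.14). COB, whose protein guides the orientation of cellulose, was the 1 of 16 for cellulose and had 0.11 (SE 0.15). Of 16 wall receptor genes 2 were named singly, THE1 and FER, receptor kinases that respond to the state of the wall. THE1 read 117.3 and 170.6 in Columbia and 205.1 and 221.9 in jaw-D, a difference of 0.54 (SE 0.20, adjusted p = 0.356 by limma) that was 0.30 without Columbia array 1, and FER had 0.12 (SE 0.15). The list of structural wall proteins had 0 of 42 genes named singly and was not analysed here.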

How the data were processed

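Total RNA of expanded leaves was measured on single-colour arrays, 2 of Columbia and 2 of jaw-D, grouped by the sample descriptions. The deposited table holds probe-set signal intensities that the authors had scaled, read as such from the values, since the mean without the lowest and highest 2% was 200.0 on every array. Which software made them is not given in the sources used here. Its 22810 rows include 64 controls, which were left out, and 0 columns were unassigned. All 27 members were matched to the reference (TAIR10.1) by gene ID.

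Signals were tested as log2(signal + 16), so fold changes of dim genes are understated, using the lmFit and eBayes functions of limma 3.58.1 (R 4.3.3). The degrees of freedom were 2 residual and 3.76 from the prior. P-values were two-sided and adjusted by Benjamini-Hochberg across 22746 probe sets. The procedure was also run on simulated data with changes of 2 on the log2 scale. Those changes are larger than the difference of any member, so that run does not speak to differences of the sizes given here. With so few arrays the smallest exact permutation p is 0.333, and no such test was run. The number of arrays limits the precision.

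Members and lists were chosen with earlier results of these data known. The text gives every member, and of each other wall list the 3 genes with the smallest unadjusted p at most, besides TBL26 and XTH32. PRP39, a splicing factor, was left out of the wall protein list. Neighbours, and genes outside the symbol rule, were chosen after their values were seen. Figures were drawn with matplotlib 3.10.9.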

Additional observations from a re-analysis of the deposited data

How the results depend on the processing

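Each member gene had 1 probe set, so using every probe set of the genes could not change the count of 1 called member. That count stayed 1 with quantile normalization, a pseudocount of 64 and an intensity trend. It became 0 with a pseudocount of 1, 0 with the replicate block, 0 without each array in turn, and 2 over the 14 members at or above the median mean signal, a filter that EXLB1 passed through its jaw-D signal. The same settings gave 0, 66, 0 and 291 calls over all probe sets against 43, with 2538 at an unadjusted p under 0.05 for a pseudocount of 1 and 1978 to 2492 without 1 array, where the lone array is assumed to vary like the other genotype. The intensity trend gave 103. Members at an unadjusted p under 0.05 numbered 3 with a pseudocount of 1, 3 with the block and 2 to 5 without 1 array. The adjusted p of EXLB1 ran from 0.00121 to 0.419 over the 10 settings, with 0.0533 in the replicate block. Arrays that share a letter in their titles, and so a number here, deviated with a correlation of -0.0743 over all probe sets. With a single pairing to look at, this cannot show whether such arrays were grown or processed together, which the labels do not state. The members' median ran from -0.07 to 0.18 without 1 array.

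Of the 27 members, 9 kept their sign in every setting that tested them and 18 did not, none of these called in any setting. With quantile normalization EXPA16 turned to 0.08, EXPA7 to 0.12 and EXPB5 to 0.03, and with a pseudocount of 64 EXPB1 turned to 0.00. Without 1 array the ranges were -0.24 to 0.39 for EXPA15, -0.37 to 0.33 for EXPA16, -0.21 to 0.86 for EXPA20, -0.36 to 0.52 for EXPA4, -0.33 to 0.26 for EXPA7, -0.02 to 0.26 for EXPA9, -0.31 to 0.30 for EXPB1, -0.05 to 0.80 for EXPB2, -0.51 to 0.29 for EXPB5, -0.05 to 0.36 for EXLA2, -0.58 to 0.09 for CSLA01, -0.01 to 0.08 for CSLC04, -0.05 to 0.19 for CSLC12, -0.16 to 0.04 for CSLC5, -0.17 to 0.19 for CSLC6, -0.02 to 0.15 for CSLD2, -0.15 to 0.65 for PME61 and -0.18 to 0.18 for PMEPCRF. The cause of these changes was not tested.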
